A study of Microtus ochrogaster with 23 samples.

Results

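DNA methylation in the dentate gyrus (DG) was compared between sexually naïve male prairie voles that attacked a pup (“Attacker”, 6 animals) and sexually naïve males that cared for it (“Parental”, 6 animals), at the scale of 1-kb windows of the genome. Cytosines outside chromosome X that were read at least 10 times in an animal were pooled by the kilobase they lie in, and the level of a window in an animal is the mean share of methylated reads over its cytosines. A window was compared when at least 3 such cytosines were present in at least 4 animals of each group. These rules left 70682 windows, of the 207980 windows that reached 3 cytosines in at least 1 of the 12 animals and of the 229383 windows that did so in at least 1 of the 23 animals of the whole series. A level was present in all 12 animals for 42264 windows, 51435 windows lie on placed chromosomes or linkage groups, and 32853 overlap an annotated gene.

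Both groups were wild-type adult virgin males of a laboratory colony, housed with a same-sex sibling and exposed to an unfamiliar pup, and the groups were formed only from the animals' own response to that pup. The brains were collected right after the test. “Attacker” animals were separated from the pup at their first aggression, while the “Parental” animals stayed with it. Time spent with the pup thus differed with group and cannot be told apart from the response. The series also holds 5 “Father” and 6 “Mother” animals, pair-bonded and tested with a pup as the “Parental” animals were. Their levels are given beside some windows as a description. Each library was made from 100 ng of DNA of the DG of 1 animal, as reduced representation bisulfite sequencing, which reads the ends of fragments cut by MspI and so favours CpG-rich sequence. The DG was taken as punches of bulk tissue, so a different share of a cell type cannot be told apart from a different level within cells, and DNA methylation alone could not be used to check the labelled tissue against marker genes. Whether animals were related to each other is not stated in the sources used here.

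The DG holds the granule neurons that pass cortical input on to the hippocampus, and it is a site where neurons are still added in adult life. Methylation of a CpG is set and maintained by DNA methyltransferases and removed through TET enzymes. CpG-dense promoters are usually unmethylated, gene bodies and the CpG-poor remainder of the genome are usually methylated, and intermediate levels often mark distal regulatory sequence or differ between cells and alleles. Prairie voles are a model of social bonding, and in some virgin males care of a stranger's pup appears without any mating or parenting experience, while others attack.

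The 12 libraries held between 64896224 and 107544819 read calls over CpG cytosines, and between 1570107 and 1798203 cytosines of at least 10 reads. Between 61657 and 68074 of the compared windows had a level in a given animal, with 40.5 to 68.8 reads per cytosine on average. None of these 4 measures of depth differed between the groups by an exact permutation test (p = 0.543 to 0.846). “Attacker” replicate 6 had the fewest reads per cytosine, 40.5, and “Attacker” replicate 1 the most, 68.8. Levels of the windows correlated between animals with r of 0.862 to 0.927 across windows, and the median r was 0.896 within “Attacker”, 0.908 within “Parental” and 0.900 between the groups. These correlations are across windows, which are not independent, and are given as a description.

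The methylation level of the DG as a whole was close to equal in males that attacked and males that cared for the pup. The mean level over the 42264 windows read in all 12 animals was 18.6% ± 1.82 (SD, n = 6) in “Attacker” and 18.0% ± 0.639 (SD, n = 6) in “Parental”, a difference of 0.531 points (exact permutation test, two-sided, p = 0.545). The “Attacker” animals read 16.5, 17.8, 17.3, 18.7, 19.6 and 21.5%, and the “Parental” animals 17.2, 17.4, 18.2, 18.4, 18.0 and 18.9%. The groups overlapped, and “Attacker” replicate 6 was the highest and “Attacker” replicate 1 the lowest of all. Without “Attacker” replicate 6 the difference was -0.0599 points (exact permutation test, p = 0.931), so its sign rested on that animal. Low windows (mean level below 20%), windows of intermediate level and high windows (above 80%) differed by 0.308, 1.43 and -0.310 points, none beyond the spread between animals (exact permutation test, adjusted p = 0.597 for each over 4 measures). The smallest p that 6 against 6 animals can give in this test is 0.00216.

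On average, “Attacker” animals of this sample lay farther from each other than “Parental” animals did. A window was counted as far in an animal when its level was over 20 points from the median of the other animals of the same group. This held for 7.81% ± 1.45 (SD, n = 6) of windows in “Attacker” and 6.13% ± 0.858 (SD, n = 6) in “Parental” (permutation test over animals, two-sided, p = 0.0238). The shares of a group depend on each other through these medians and were not recomputed in the permutations. That p is therefore not exact and is given as a description. The “Attacker” shares were 8.09, 7.06, 6.51, 6.86, 7.81 and 10.5%, and the “Parental” shares 7.37, 6.27, 4.97, 5.43, 6.10 and 6.67%. The groups overlapped, and the highest share was that of “Attacker” replicate 6, the animal with the fewest reads per cytosine and the highest mean level. The part of depth and mean level in this share was not tested. The p of the difference was above 0.05 without “Attacker” replicate 5 (p = 0.0649), “Attacker” replicate 6 (p = 0.0736), “Parental” replicate 3 (p = 0.0519) or “Parental” replicate 4 (p = 0.0519), all by the same permutation test. Over the 37836 windows read in all 23 animals, the mean shares were 6.07% in “Attacker”, 4.55% in “Parental”, 4.80% in “Father” and 4.60% in “Mother”.

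**Figure D1:**
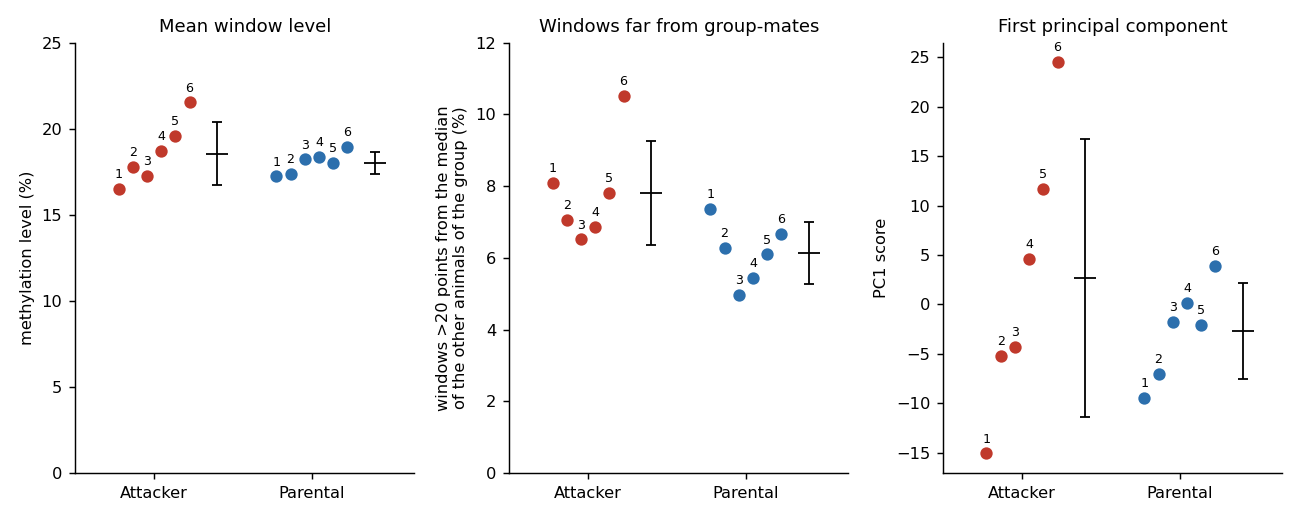
Mean window level in percent (left), percent of windows over 20 points from the median of the other animals of the group (middle) and score on the first principal component (right), for each of the 6 “Attacker” and 6 “Parental” animals, numbered by replicate. Points are animals and bars are the mean and SD of the group; “Attacker” replicate 6 is the highest in all 3 panels, and the groups overlap in each.

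No leading axis of variation separated the groups. The first component, which held 15.6% of the variance of the arcsine square-root levels, ran within “Attacker” from -15.05 in replicate 1 to 24.5 in replicate 6, while “Parental” animals lay between -9.47 and 3.91 (exact permutation test, p = 0.411). The “Attacker” scores by replicate were -15.05, -5.20, -4.29, 4.62, 11.7 and 24.5. Their reads per cytosine were 68.8, 53.4, 56.6, 43.6, 42.4 and 40.5, and their mean level rose in strict order of falling depth. “Parental” animals, with 51.4, 56.3, 58.4, 62.2, 49.5 and 46.2 reads, showed no such order. The part of depth in the first component and in mean level was not tested. The second component (9.92%) set “Parental” replicate 1 apart at 24.8, with all other animals between -7.97 and 3.01 (p = 0.444 by the same exact test). The third (9.63%) placed “Attacker” replicate 5 at -23.2 and “Attacker” replicate 6 at 13.03, with the other 10 animals between -0.589 and 3.07 (exact p = 0.742). The second and the third axis thus mostly described 1 or 2 animals.

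Single windows that passed a test over the whole genome were few. By limma on arcsine square-root levels with Benjamini-Hochberg adjustment over all windows, 4 windows had an adjusted p under 0.05, which is 0.00566% of those tested, 1 higher and 3 lower in “Attacker”. At an unadjusted p under 0.05 there were 3324 windows (4.7%), of which 1863 (2.64%) were higher and 1461 (2.07%) lower in “Attacker”. The 4.7% is no more than a threshold of 0.05 gives by itself when no window differs. An unadjusted p under 0.05 in a single window is thus weak evidence of a difference. Adding the requirement of a difference over 15 points, the size the study asked of single CpGs, left 1570 windows (2.22%), 1004 of them higher (1.42%) and 566 lower (0.801%) in “Attacker”. These 1570 are called nominal windows here, and apart from 3 they did not pass the adjustment. Levels of the groups did not overlap in 323 windows (0.457%), 193 (0.273%) with “Attacker” higher and 130 (0.184%) with “Attacker” lower. The excess of higher windows depended on “Attacker” replicate 6: without it, 588 nominal windows were higher and 674 lower.

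The size of a difference followed how many cytosines a window held. Among the 19053 dense windows, with 20 or more cytosines on average, the median level was 0.724%, the central 95% of differences ran from -2.70 to 3.52 points, and the median half-width of the 95% interval of a difference was 1.13 points. Of the dense windows, 6 (0.0315%) were nominal, 3 in each direction. Among the 17266 sparse windows, with fewer than 5 cytosines, the median level was 52.2%, differences ran from -20.8 to 24.5 points over the central 95%, and the median half-width was 20.1 points. Of these, 685 (3.97%) were nominal. The typical interval was thus far narrower than 15 points in dense windows and wider than 15 points in sparse ones. By place, 1.98% of the 32853 windows within a gene were nominal, 1.19% of the 3541 windows beside a gene (outside it by up to 2 kb) and 3.11% of the 15041 placed windows farther away, and the median levels of these classes were 10.1, 4.60 and 40.9%, in the same order as the shares.

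**Figure D2:**
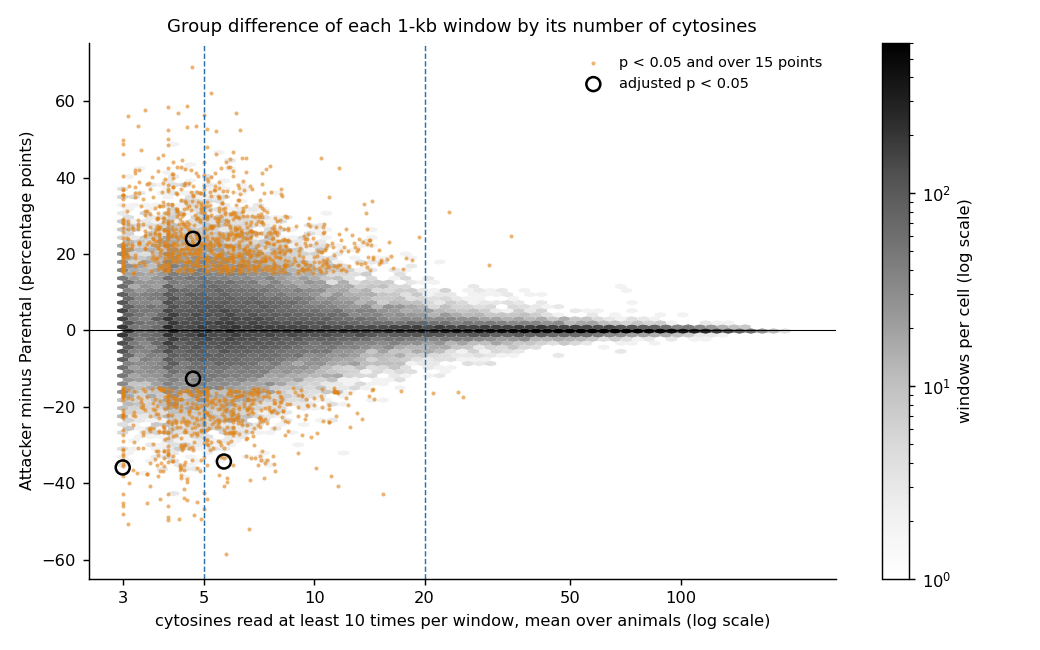
Difference of the group means (“Attacker” minus “Parental”, percentage points) of each of 70682 windows against its mean number of cytosines read at least 10 times, on a log axis, with dashed lines at 5 and 20 cytosines. Grey cells give the number of windows, orange points are the 1570 nominal windows and circles the 4 windows with an adjusted p under 0.05; the spread narrows from sparse to dense windows, and all 4 circles hold fewer than 20 cytosines.

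In each of the 4 windows past the adjusted threshold, every animal of one group with a level read exactly 0% or exactly 100%. The window with “Attacker” higher lies within Aldh7a1, an aldehyde dehydrogenase of lysine breakdown (chr18:42865000-42865999, MicOch1.0; the gene spans 42863806 to 42899930). All 6 “Attacker” animals read 100%, and the “Parental” animals 66.7, 88.4, 77.9, 56.6, 83.3 and 83.3%, a difference of 23.97 points (limma, adjusted p = 0.0371). The groups did not overlap. However, at the 3 cytosines that were read at least 10 times in at least 4 animals of each group (comparable cytosines), all “Attacker” animals and 4 of the 5 “Parental” animals read there had 100%, and the mean difference was 2.06 points. The lower window levels came mostly from a cytosine at position 42865239, which was read in all 6 “Parental” animals, at 0% in 5 of them and 30.3% in replicate 2, but in 1 “Attacker” animal, at 100%. In “Parental” replicates 1 and 4 position 42865209, at 0 and 69.7%, added to this.

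The window within Pde11a, a phosphodiesterase that breaks down cAMP and cGMP and is known from the rodent hippocampus for a role in social memory, was lower in “Attacker” (chr4:85393000-85393999; the gene spans 85392005 to 85665333). The 5 “Attacker” animals with a level read 65.97, 66.7, 66.7, 79.1 and 50% and the 4 “Parental” animals each 100%, a difference of -34.3 points (limma, adjusted p = 0.0417). No cytosine of this window was comparable. A cytosine at position 85393523 was read at 0% in all 6 “Attacker” animals and, among “Parental” animals, only in replicate 2, which also read 0% there and had too few cytosines for a window level. At the 6 cytosines from position 85393554 to 85393623 that gave the “Parental” levels, 0 or 2 “Attacker” animals were read. Other cytosines also lowered “Attacker” levels, such as positions 85393531 and 85393549 in replicate 1 (27.8 and 0%), 85393601 in replicate 2 (0%) and 85393522 in replicate 6 (0%).

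Of the other windows that passed, the placed one lies over 2 kb from any annotated gene, and for the one on an unplaced scaffold genes were not looked up. In the window at chr4:38823000-38823999, “Attacker” animals read 66.7, 52.7, 59.9 and 77.3% and 5 “Parental” animals 100% each, a difference of -35.9 points (limma, adjusted p = 0.0281). Here the same 3 cytosines were read in all 9 animals, and each was lower in “Attacker”, with differences of -72.96 to -13.4 points. The largest difference was at position 38823043, where “Attacker” animals read 0, 11.6, 30.6 and 65.9% and every “Parental” animal 100%. Of the 4 windows, this was the only one in which every cytosine was comparable. In the window at 2130000 to 2130999 of the unplaced scaffold JH996438.1, 5 “Attacker” animals read 0% and 4 “Parental” animals 12.96, 13.3, 14.3 and 10% (difference -12.6 points, limma, adjusted p = 0.0198), with no comparable cytosine. “Attacker” replicate 4 had too few cytosines for a level in it. At position 2130448 that animal read 56.25%, while “Attacker” replicate 1 and 5 “Parental” animals read 0%.

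None of the 4 adjusted calls held throughout the alternatives. The Aldh7a1 window kept an adjusted p under 0.05 in 6 of the 23 alternatives that gave it a value, and lost it without any 1 of the 6 “Attacker” animals (limma, adjusted p = 0.0885 to 0.148) or without “Parental” replicate 1, 3, 5 or 6 (0.0872 to 0.210). The Pde11a window kept it in 9 of 18 and lost it without “Attacker” replicate 1, 2 or 4 (0.141 to 0.171). The window at chr4:38823000-38823999 kept it in 8 of 19 and lost it without “Parental” replicate 1, 2, 3, 4 or 5 (0.0639 to 0.210). Its 8 include the fit on cytosines shared by all animals, which here used the same cytosines and is no separate check. Without any 1 of its “Attacker” animals it was not tested. The window on JH996438.1 kept it in 10 of 17 and lost it without “Attacker” replicate 1 or 2 (0.0894 and 0.0595). Some kept fits left out an animal with no level in the window and so refit the same levels. For Pde11a these were “Attacker” replicate 3 and “Parental” replicates 2 and 4. At chr4:38823000-38823999 they were “Attacker” replicates 3 and 4 and “Parental” replicate 6. On JH996438.1 they were “Attacker” replicate 4 and “Parental” replicates 2 and 5. On untransformed levels, with a coverage minimum of 5, with the number of covered cytosines as a covariate and by edgeR, all 4 were lost.

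Across all nominal windows, cytosines read in both groups carried much but not all of the difference. Of the 1570, 1157 held at least 3 comparable cytosines, and in 817 of these (70.6%) the comparable cytosines alone also differed by more than 15 points in the same direction, 554 higher and 263 lower in “Attacker”. In 268 they differed by 5 to 15 points in that direction, and in 72 by at most 5 points or the other way. The remaining 413 nominal windows (26.3%) held fewer than 3 comparable cytosines, against 12.7% of all windows tested, and 180 of them held none. The median difference among the 1157 was 21.996 points over all cytosines and 19.1 over comparable ones. The comparable difference is therefore given beside most of the windows below. Comparable cytosines are part of the level that a window was chosen by, and neighbouring ones can lie on the same reads. They are not replicates, and their agreement in direction is a description and no separate evidence.

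**Figure D3:**
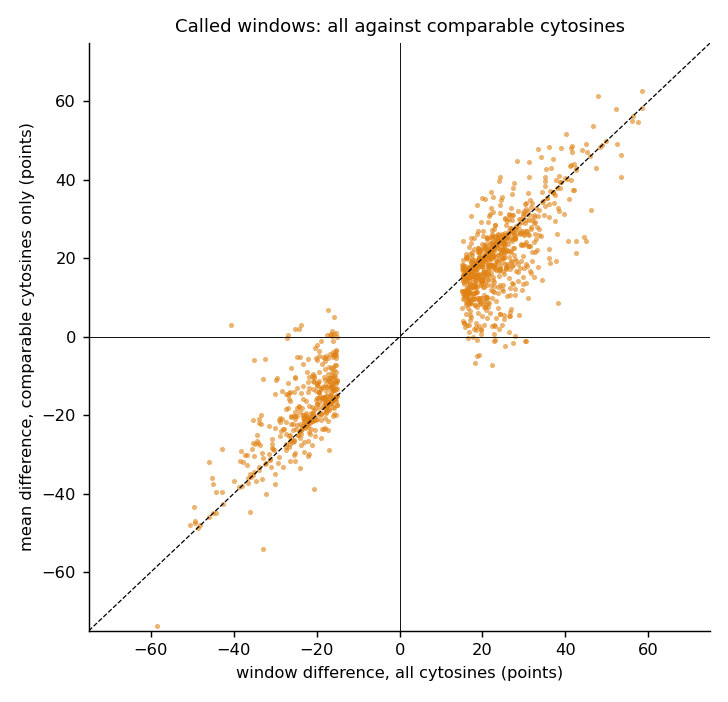
For the 1157 nominal windows with at least 3 comparable cytosines, the mean difference over those cytosines only against the difference of the whole window (both “Attacker” minus “Parental”, percentage points), with a dashed line of equality. Most points lie near the line, and 72 windows differ by at most 5 points, or the other way, at comparable cytosines.

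Among gene windows with the smallest p and “Attacker” higher, those of Trpm2, Cdyl, Lrrc3b, Dnah8 and Shroom3 differed by 22.98 to 40.02 points, without overlap and at comparable cytosines too, although none passed the adjustment (limma, adjusted p = 0.356 to 0.735). Trpm2 encodes a calcium-permeable channel opened by ADP-ribose under oxidative stress. Its window (LG2:47864000-47864999) read 80, 93.3, 86.7, 90.6, 74.6 and 88.4% in “Attacker” and 51.7, 27.3, 45.6 and 57.7% in “Parental”. The difference was 40.02 ± 13.7 points (half-width of the 95% interval), and the 3 comparable cytosines differed by 40.4 points on average. “Father” animals averaged 75.3% and “Mother” animals 80.4%, nearer to “Attacker”.

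Cdyl encodes a chromodomain protein that binds methylated histone tails and helps to silence genes. Its window (chr16:40307000-40307999) read 100% in 4 “Attacker” animals and 75, 75, 88.3 and 60.5% in 4 “Parental” animals, and the same 4 cytosines were higher in “Attacker” by 14.5 to 36.7 points. At positions 40307006 and 40307059 only “Parental” replicate 6 was below 100% (42.1 and 0%). At 40307017 this was only “Parental” replicate 3 (0%), and at 40307072 “Parental” replicates 4 and 5 (0 and 53.1%). In Lrrc3b, a leucine-rich repeat membrane protein (chr6:47206000-47206999), “Attacker” animals read 66.7, 79.8, 91.7, 80.2 and 81.7% and “Parental” animals 50, 53.5, 40.8, 63.4, 55.7 and 53.6%. Its difference was 27.2 ± 10.6 points, with 26.8 at comparable cytosines, and “Father” (57.8%) and “Mother” (60.2%) averages lay near “Parental”. The window of Dnah8, a dynein motor of cilia and flagella (LG2:49521000-49521999), read 100, 90.6, 100, 100 and 100% against 78.3, 66.7, 80.5 and 75.1%, with 23.98 points at comparable cytosines. For Shroom3, an actin-binding protein that shapes epithelial cells (LG1:45841000-45841999), “Attacker” animals read 40, 49.6, 32.4 and 40% and “Parental” animals 12.7, 0, 0 and 0%, with 34.2 points at comparable cytosines and averages of 8.53% in “Father” and 5.11% in “Mother”.

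The other higher windows were smaller in size or rested on fewer shared cytosines. Actn1, an actin cross-linker (chr1:18044000-18044999), read 17.3, 23.04, 19.1, 25.9, 13.1 and 11.6% in “Attacker” and 1.20, 0.541, 6.27, 4.09, 5.39 and 8.41% in “Parental”, without overlap, and 10.4 points apart at comparable cytosines. Lrba, a protein of vesicle trafficking (chr1:125951000-125951999), differed by 20.2 points over the window and 8.66 at comparable cytosines. Ppp1r16a, a regulatory subunit of a protein phosphatase (chr15:11360000-11360999), differed by 15.4 and 10.9 points. The window beside Rplp2, a ribosomal stalk protein (chr8:34167000-34167999), read 17.2, 24.5, 19.05, 0, 28.97 and 28.6% in “Attacker” and 0% in each “Parental” animal, yet its 5 comparable cytosines differed by only 0.681 points. Its levels came from positions 34167446 and 34167460, read in 5 “Attacker” animals, at 20.7 to 100%, and in 1 “Parental” animal, at 0%.

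Among the gene windows with the smallest p and “Attacker” lower, those of Pde11a, Clip2, Abcb1, Snph, Rnf152 and Celf4 had no comparable cytosine. Of all nominal windows, 80 of the 566 lower and 100 of the 1004 higher ones had none. Clip2, a linker of microtubule ends (chr2:23098000-23098999), read 90, 73.3, 91.9, 85.7 and 85.3% in “Attacker” and 100% in 4 “Parental” animals. Abcb1, the drug efflux pump of the blood-brain barrier (chr26:237000-237999), read 88.6, 75, 87.8 and 75% against 100% in 4 animals. Snph, which anchors mitochondria in axons (LG8:24286000-24286999), read 88.9, 72, 80 and 88.7% against 100%, and Celf4, a neuronal RNA-binding protein (chr18:1876000-1876999), read 80, 92, 66.7 and 88.9% against 100%. The groups did not overlap in these 4 windows, but in none of them was any cytosine read at least 10 times in 4 animals of each group. Rnf152, a lysosomal ubiquitin ligase (chr6:19249000-19249999), had the largest difference of them, -40.7 ± 18.7 points.

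Fat3, Ap2b1 and Slc44a2 were lower in “Attacker” at shared cytosines. In Fat3, an atypical cadherin (chr5:10788000-10788999), “Attacker” animals read 69.3, 80, 76.7 and 81.02% and “Parental” animals 100, 89.4, 100, 100 and 100%, and the 2 comparable cytosines differed by -27.1 and -34.8 points. Ap2b1, a subunit of the adaptor that recruits clathrin to synaptic and other membranes (chr7:15749000-15749999), read 79.2, 90, 85.7, 83.4, 89.9 and 73.04% in “Attacker” and 95, 100, 99.4, 100 and 97.9% in “Parental”, with a mean difference of -11.97 points at its 7 comparable cytosines. Slc44a2, a choline transporter-like protein (chr5:15438000-15438999), read 0% in 5 “Attacker” animals and 3.20 to 20% in “Parental”, with 1 comparable cytosine, which differed by -35.9 points. Shank3, a scaffold of excitatory synapses (chr15:21702000-21702999), read 0, 7.42, 1.39, 0 and 0% in 5 “Attacker” animals and 27.8, 8.33, 20.996, 43.2, 14.8 and 18.2% in “Parental” (limma, adjusted p = 0.769), but only -2.93 points apart over 9 comparable cytosines. The higher “Parental” values came partly from position 21702920, read at 100% in 5 “Parental” animals, and in 2 “Attacker” animals at 0 and 80.6%.

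**Figure D4:**
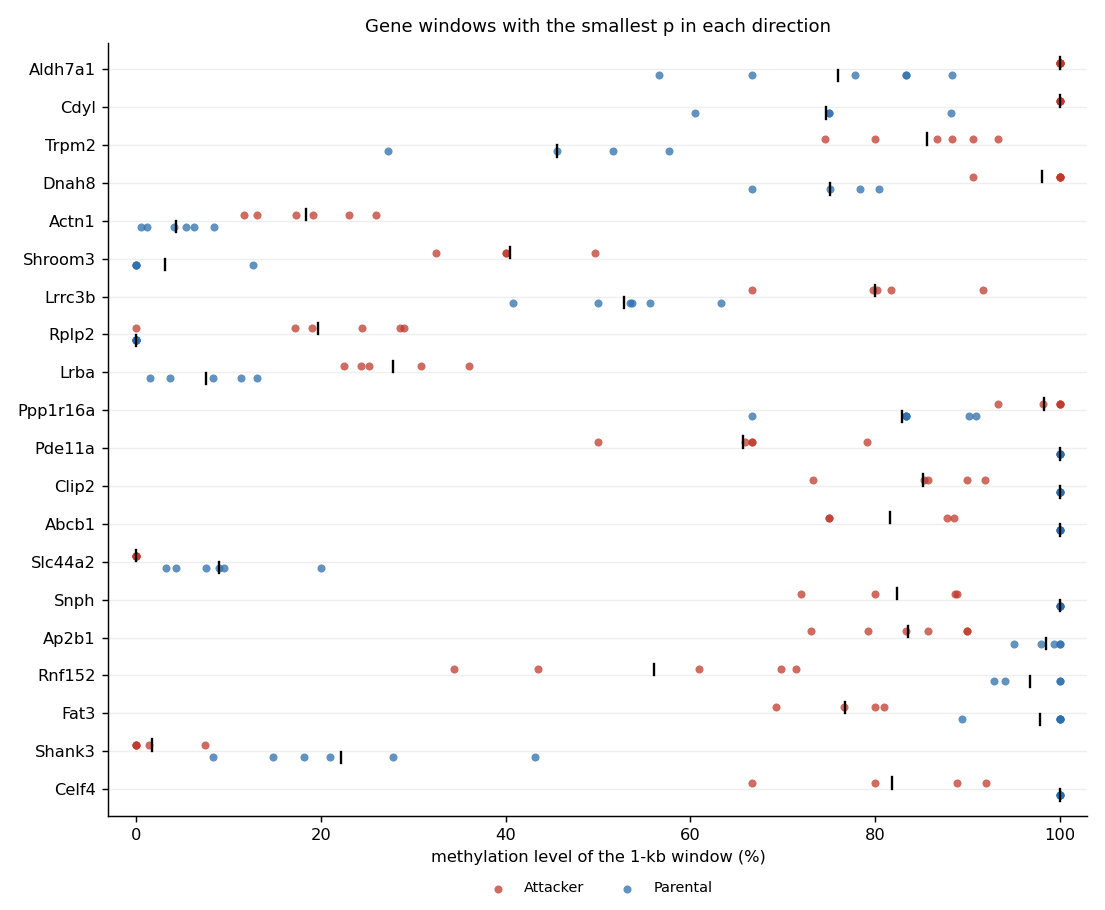
Methylation level in percent of the 20 gene windows with the smallest p in each direction, 1 point per animal with a level (red “Attacker”, blue “Parental”) and a black tick at the group mean. The groups overlap in 1 of the 20, the Rplp2 window, and in 9 of them all animals of a group lie at exactly 0 or 100%. Choosing windows by a small p favours both traits, and over all windows the groups do not overlap in 0.457%.

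The largest differences in size, among windows with p under 0.05 whatever their place, ran from 56.1 to 68.9 points in 10 windows, and their adjusted p by limma from 0.735 to 0.991. The largest was at LG9:27549000-27549999, where “Attacker” animals read 100, 100, 100 and 84.8% and “Parental” animals 80, 4.17, 0 and 25%, with no comparable cytosine. At chr2:42784000-42784999, the only one of the 10 with “Attacker” lower, levels were 0, 28.6, 13.8 and 16.2% against 52.7, 77.1, 83.3 and 80%, and the 4 comparable cytosines differed by -87.8 to -59.3 points. Within Sel1l3 (LG1:12069000-12069999), “Attacker” animals read 75, 75, 75 and 52.3% and “Parental” animals 0, 50, 0, 15.7, 0 and 0%, a difference of 58.4 ± 24.4 points that was the same over its 4 comparable cytosines. Averages of 13.9% in “Father” and 22.8% in “Mother” lay near “Parental”. Rgs3, a brake on G protein signaling (chr10:8160000-8160999), read 17.5, 75.8, 62.5, 100 and 100% against 0, 0, 24.5 and 11.7%, with overlap. At chr17:21120000-21120999, 4 of 5 “Attacker” animals read 64.8 to 78.3% and the fifth 18.1%, inside the “Parental” range of 0 to 18.2%, with 54.9 points at comparable cytosines.

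The 6 dense nominal windows, chosen after their values were seen, all lie among the 666 dense windows of intermediate level, whose median half-width of the interval was 11.4 points. At 1363000 to 1363999 of the unplaced scaffold JH996474.1, “Attacker” animals read 8.75, 44.6, 69.8, 87.5, 44.6 and 30.2% and “Parental” animals 11.3, 4.70, 25.1, 41.6, 5.10 and 11.9%. The groups overlapped. All 16 comparable cytosines were higher in “Attacker”, by 5.38 to 65.96 points, but they are part of the window level and no separate evidence. “Mother” animals there ranged from 0.417 to 95% and “Father” animals from 13.3 to 29.2%. Chst3, a sulfotransferase of chondroitin chains (LG2:33029000-33029999), read 61.2 to 65.6% in all “Attacker” animals but 73.1, 33.3, 44.7, 52.2, 33.4 and 0% in “Parental”. Its “Parental” values ranged on both sides of the “Attacker” ones, and the 12 comparable cytosines differed by 12.3 points. Neurl1b, a ubiquitin ligase of the Notch pathway (chr7:182000-182999), differed by -17.4 points over the window and -5.47 at comparable cytosines.

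In Wnt signaling, secreted ligands stabilise β-catenin through Frizzled receptors, and Dickkopf proteins act as secreted modulators. It was represented by 396 windows in 69 of 97 listed genes. Of these windows 18 (4.55%) had p under 0.05, 13 higher and 5 lower in “Attacker”, and 8 (2.02%) were nominal, near the 2.22% of all windows. The median difference was 0.0406 points, against 0.0957 over all windows, and no window passed the adjustment. This list was drawn up with the study's interest in Wnt genes known and is no independent evidence. Among ligands, Wnt3a had 2 nominal windows of 10. At chr7:39390000-39390999, just outside the gene, “Attacker” animals read 65.8, 76.3, 77.9, 70.1, 77.8 and 80.95% and “Parental” animals 33.5, 66.9, 43.2, 32.96 and 58.9% (difference 27.7 ± 14.4 points, limma, adjusted p = 0.887). At chr7:39347000-39347999, within it, levels were 22.97, 53.3, 54.3 and 28.9% against 6.41, 17.1, 11.9 and 6.34%. Both windows were higher at comparable cytosines, by 22.7 and 26.6 points. The groups overlapped in the first of them, where “Parental” replicate 2 lay above “Attacker” replicate 1, and not in the second.

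Among secreted modulators, Dkk2 (chr21:27407000-27407999) read 11.4, 100, 10.9, 44.4, 88.1 and 50% in “Attacker” and 0, 31.9, 18.4, 11.6, 7.25 and 22.95% in “Parental”, all 12 animals at the same 3 cytosines, a difference of 35.5 ± 34.03 points. Here 4 “Attacker” animals lay above every “Parental” animal and 2 within their range. Dkk3 (chr8:3722000-3722999) read 66.5, 64.9, 45.7 and 59.7% against 40.99, 14.1, 38.1, 17.5 and 52.7%, 14.97 points apart at comparable cytosines. Lgr6, a receptor of R-spondins (chr6:25664000-25664999), differed by 20.98 points, and by 17.3 at its only comparable cytosine. In the cell, Apc2 of the β-catenin destruction complex (LG1:3481000-3481999) differed by 17.2 points over a dense window and by 10.5 at comparable cytosines, but by -1.17 points when each window was restricted to cytosines shared by all its animals. The nuclear factor Tcf7l2 had 27 windows, and 1 of them was nominal, at chr8:83208000-83208999, with 73.2, 50, 100 and 66.2% against 100% in 4 “Parental” animals and no comparable cytosine. Celsr1, a cadherin of planar polarity (chr15:25247000-25247999), differed by -17.3 points, and by -23.9 at comparable cytosines.

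Genes of social neuropeptide and steroid signaling had 149 windows in 47 of 77 listed genes. The 47 did not include Oxt, Oxtr, Avp or Avpr1a of oxytocin and vasopressin signaling, which are thus not covered here. Of the 149 windows 12 (8.05%) had p under 0.05, 8 higher and 4 lower, against 4.7% of all windows. Of the 149, 6 (4.03%) were nominal, against 2.22% of all windows. None passed the adjustment, and the list as such was not tested. For enzymes of monoamine synthesis, the window of Tph2, the step that limits serotonin synthesis in neurons (chr24:11657000-11657999), read 66.5, 75.5, 68.4 and 40.6% in “Attacker” and 45.7, 38.7, 37.3 and 39.01% in “Parental”, and its 3 comparable cytosines were higher by 12.9 to 34.2 points. That of Th, which limits dopamine synthesis (chr8:35438000-35438999), read 61.3, 88.6, 58.4, 83.6, 66.5 and 80.5% against 27.6, 61.3, 53.7, 72.4 and 50.6%, with overlap and 14.9 points apart at comparable cytosines. Among receptors, Vipr1, which binds VIP and PACAP (chr5:93893000-93893999), read 81.8, 89.7, 91.95 and 92.1% against 54.4, 54.6, 72.8, 56.5 and 79.7%, without overlap and 17.9 points apart at comparable cytosines, and Drd2, an inhibitory dopamine receptor (chr5:43602000-43602999), read 16.2, 53.8, 47.9 and 36.6% against 92.8, 48.4, 77.7, 58.3 and 73.7%. The Drd2 difference of -31.6 points was -22.8 at comparable cytosines, and “Father” (74.9%) and “Mother” (62.3%) averages lay near “Parental”.

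Esr1, the estrogen receptor alpha (LG9:16444000-16444999), read 20, 0, 73.7 and 52.4% in “Attacker” and 0, 0, 2.20, 11.1, 0 and 11.1% in “Parental”, with 1 comparable cytosine that differed by 8.99 points. Crhbp, which binds and buffers corticotropin-releasing hormone (chr19:5097000-5097999), read 60, 5.95, 12 and 28.7% against 46.2, 42.9, 60.8, 56.4 and 50%, so that 1 “Attacker” animal lay among the “Parental” ones, with -25.02 points at comparable cytosines. The somatostatin receptor gene Sstr2 (chr7:76624000-76624999) had a precise but small difference of -3.45 ± 2.48 points, with 0.502, 1.24, 1.39, 1.75, 0 and 1.17% in “Attacker” and 3.55, 3.54, 1.70, 3.57, 9.46 and 4.91% in “Parental”, and with -3.15 points at comparable cytosines.

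Synaptic genes of glutamate and GABA had 437 windows in 54 genes, with 24 (5.49%) at p under 0.05, 15 higher and 9 lower, and 11 (2.52%) nominal, close to the 4.7% and 2.22% of all windows. Differences at shared cytosines were found for Syt1, the calcium sensor of transmitter release (chr24:17411000-17411999), with 100, 75.96, 77.5, 97.04, 90 and 87.7% against 25, 25, 62.1, 92.7, 64.02 and 73.6%, and 23.2 points at comparable cytosines. The scaffold gene Dlg2 (chr22:7875000-7875999) read 52.9, 30.6, 61.1, 35.98 and 63.4% in “Attacker” and 71.4, 89.2, 70.4, 62.5, 66.7 and 100% in “Parental”, with overlap and a difference of -23.4 points at 12 comparable cytosines. The GABA-B receptor subunit gene Gabbr2 (LG5:41800000-41800999) read 56.4, 29.4, 6.67, 23.9, 20.5 and 28.1% against 7.20, 6.21, 8.65, 11.9, 21.4 and 17.2%, with all 6 comparable cytosines higher in “Attacker”. Of the 17 windows of Gabbr2 it was the only nominal one, and the window with the smallest p in that gene differed the other way, by -14.5 points. The NMDA receptor subunit gene Grin2a (chr7:11026000-11026999) had the largest difference of the list, 52.3 ± 47.3 points, but its “Attacker” animals read 0, 50, 70 and 99.4% and no cytosine was comparable. Dlgap4, a postsynaptic scaffold (LG8:21500000-21500999), read 87.5, 96.8, 99.2 and 97.04% against 69.2, 33.3, 66.6, 73.9 and 85.6%, without overlap, and differed by 34.7 points at its only comparable cytosine.

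Genes of granule neurons and neurogenesis had 322 windows in 45 genes, with 14 (4.35%) at p under 0.05, 7 in each direction, and 4 (1.24%) nominal, both below the shares of all windows. Ptch1, the Hedgehog receptor (chr16:62439000-62439999, within 2 kb of the gene), read 31.5, 58.5, 33.3, 69.9, 50.97 and 64.3% in “Attacker” and 18.9, 28.3, 26.1, 48.1 and 23.3% in “Parental”, and all 5 comparable cytosines were higher, by 10.3 to 33.7 points. Bcl11b, a transcription factor of neurons (chr1:43352000-43352999), differed by 17.5 points, and by 19.9 at comparable cytosines. Ntrk2, the receptor of BDNF (chr16:59691000-59691999), read 63.9, 80, 74.4, 90.1, 66.7 and 60% against 29.6, 63.2, 45.5 and 23.3%, with no comparable cytosine. Reln, the secreted protein that guides granule cell position (chr26:13877000-13877999), differed by -24.8 points over the window and by -5.08 at comparable cytosines. Gli2, a transcription factor of the same Hedgehog pathway, had the smallest p of the list among lower windows (chr6:11806000-11806999, difference -2.24 points, limma, adjusted p = 0.878). Its 42 comparable cytosines differed by -0.0942 points, the difference was 0.373 points when only cytosines shared by all its animals were used, and 4 cytosines from position 11806281 to 11806294 were read in 3 “Parental” and in no “Attacker” animals.

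Activity-induced genes, which neurons transcribe within minutes of strong input, had 118 windows in 24 genes with a median level of 1.63%. Of these windows 7 (5.93%) had p under 0.05 and 1 (0.847%) was nominal, against 4.7% and 2.22% of all windows. The single nominal window, in Nr4a3 (LG5:43016000-43016999), read 11.6, 8.89, 10.7, 22.2, 4.26 and 9.55% in “Attacker” and 16.4, 10.4, 29.3, 22.2, 39.7 and 41.3% in “Parental”, but differed by only -3.31 points at its 3 comparable cytosines. A dense window beside Atf3, a stress-induced transcription factor (chr6:77255000-77255999), read 2.98, 3.45, 3.70, 3.90, 2.70 and 7.97% against 0.628, 2.15, 2.36, 1.56, 0.674 and 1.74%, a difference of 2.60 ± 1.94 points without overlap, and of 1.56 at comparable cytosines. For Fos itself, 6 windows differed by -0.561 to 6.26 points, and the only window of Arc differed by 0.729 points. DNA methylation and chromatin enzymes had 146 windows in 34 genes, of which 3 (2.05%) had p under 0.05 and none was nominal. Both shares were below those of all windows. Among these enzymes Dnmt1 (4 windows) ranged from -0.534 to 6.33 points, Dnmt3a (12 windows) from -3.43 to 13.1 and Tet2 (5 windows) from -8.46 to 0.128. In Hdac4 (LG4:59647000-59647999) the window differed by 7.99 points but its comparable cytosines by 0.568, and with shared cytosines only by -0.201.

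Neither the activity-induced genes nor the chromatin enzymes held an adjusted call. Genes of the extracellular matrix and its receptors had 354 windows in 70 genes, with 16 (4.52%) at p under 0.05 and 8 (2.26%) nominal, 4 in each direction. These shares are close to the 4.7% and 2.22% of all windows. The integrin gene Itga3 (chr7:70924000-70924999) read 3.33, 20.3, 29.2 and 100% in “Attacker” and 78.4, 100, 100, 81.5, 100 and 72.7% in “Parental”, with differences of -56.9 to -39.8 points at 3 comparable cytosines, and 1 “Attacker” animal at the “Parental” maximum. Another integrin gene, Itgb4 (chr7:79007000-79007999), differed in the other direction, by 25.4 points, with all 6 comparable cytosines higher, by 18.5 points on average. Of the windows of 31 imprinted genes, 8 (6.11%) had p under 0.05 and 4 (3.05%) were nominal, against 4.7% and 2.22% of all windows. Both directions were found inside Blcap, the host of the imprinted gene Nnat: the window at LG8:20656000-20656999 read 21.1, 2.88, 1.64, 8.57, 11.1 and 8.11% in “Attacker” and 14.03, 28.6, 15.4, 31.96 and 48.7% in “Parental”, and the window at LG8:20659000-20659999 read 100, 79.9, 40, 83.9 and 97.1% against 43.7, 50.6, 72.2, 61.4, 63.04 and 45.7%. The comparable cytosines differed by -23.5 and 22.4 points in these 2 windows. Slc38a4, an imprinted amino acid transporter (chr15:8026000-8026999), was higher by 26.9 points, and by 21.6 at comparable cytosines.

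Markers of glia, vessels and choroid plexus, cells that a DG punch can include, had windows in 32 genes, with a median difference of -0.457 points. Of these windows 7 (5.43%) had p under 0.05, 3 higher and 4 lower, and 3 (2.33%) were nominal. Over all windows the shares were 4.7% and 2.22%. For astrocytes, the window of Aldoc (chr7:20785000-20785999) read 71.4, 0, 9.52, 34.5 and 83.3% against 100, 90, 34.2, 100 and 100% at the same 3 cytosines in all 10 animals, while that of Slc1a3, a glutamate transporter of astrocytes and neural stem cells (chr19:29164000-29164999), was higher in “Attacker” by 15.97 points, and by 20.4 at comparable cytosines. For endothelium, Pecam1 (chr7:59434000-59434999) differed by 35.8 points with no comparable cytosine. The part of cell composition in the differences above was not tested. A last list holds 12 genes whose RNA was also measured by qPCR in these groups. They had 64 windows in 10 genes, with 4 (6.25%) at p under 0.05 and the Tcf7l2 window already given as the only nominal one (1.56%). Of all windows, 4.7% had p under 0.05 and 2.22% were nominal.

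**Figure D5:**
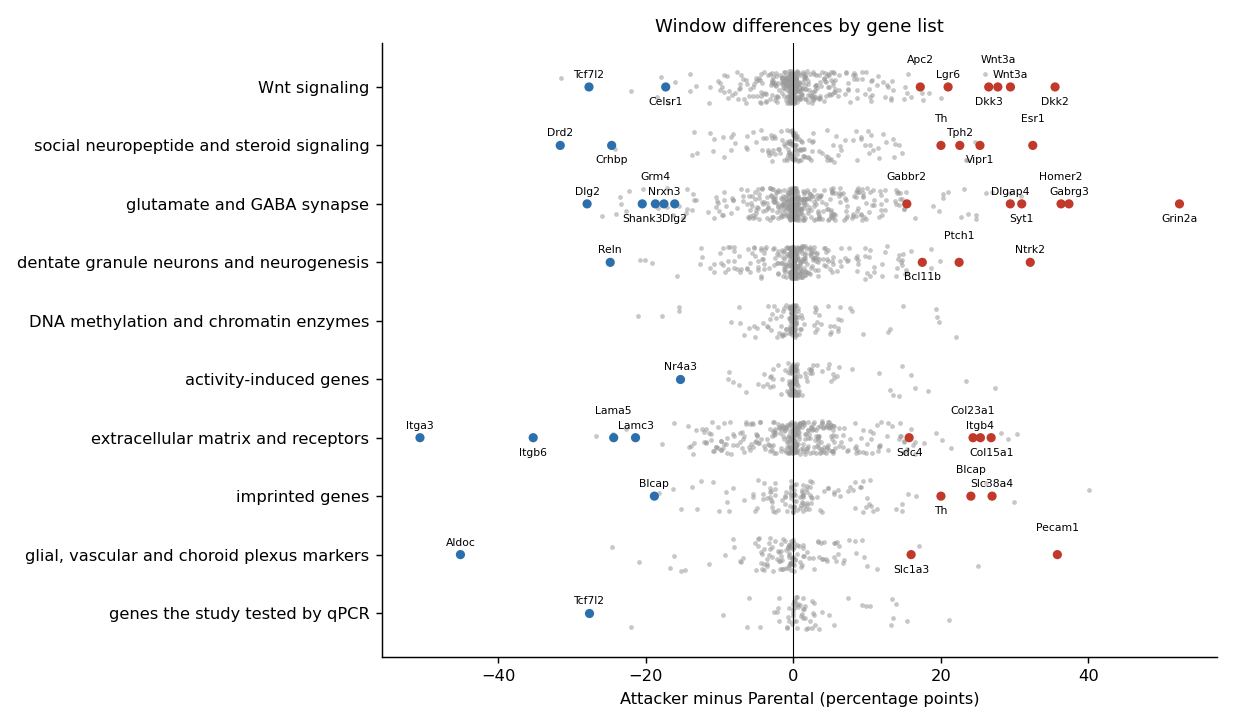
Difference of the group means (“Attacker” minus “Parental”, percentage points) of every window in or within 2 kb of the genes of 10 lists, 1 point per window, with vertical jitter. Coloured and named points are nominal windows (red higher, blue lower in “Attacker”), between 0 and 11 per list, and grey points all others, which centre near 0 in each list.

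Some genes drew interest at single CpGs of these data, and their windows are given by range. Dkk3 had 6 windows, between -6.43 and 26.5 points. Fzd10 had 5, between -21.9 and 2.96 points, with 0 at p under 0.05, and Enpp2 had 3, between -2.89 and 0.0853 points. S1pr5 had 7 windows, and the largest difference among them was 30.6 points (limma, adjusted p = 0.991). Of these windows, 2 in Dkk3, 1 in S1pr5 and 0 in Enpp2 had p under 0.05. Apba2 (9 windows), Gpr39 (10), Casz1 (15), Sppl2b (3) and Saxo2 (4) each had 0 at p under 0.05, and Colq had no window.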

How the data were processed

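The authors deposited unnormalised counts for every CpG cytosine that was covered, namely all reads and the methylated ones among them, in 1 file for each of 23 animals. They were made with bcl2fastq, Trim Galore and Bismark on MicOch1.0. Both strands of a CpG are listed apart. How duplicate reads were handled is not given in the sources used here, and without molecular identifiers a read is not a separate molecule, so depth speaks for counting error only.

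Window levels (the unweighted mean over cytosines of methylated over all reads) were transformed by arcsine square root and compared by limma 3.58.1 in R 4.3.3 (lmFit, eBayes), “Attacker” against “Parental” with no covariate, with Benjamini-Hochberg adjustment over 70682 windows. The intervals of differences come from the same model on untransformed levels. Values per animal were compared by two-sided exact permutation tests. For the share of far windows, which is measured within the labelled group, the permutation p is not exact. The limma step was tested on simulated data, with changes placed only in windows of intermediate level and little spread between animals. The simulation thus did not test changes that leave a whole group at the lowest or highest possible level, as in the adjusted calls. Alternatives changed the transformation, level, coverage minimum, cytosines, animals, window borders and tool (edgeR 4.0.16).

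A window was assigned to a gene extended by 2000 bp on each side, from a RefSeq table of MicOch1.0 with gene starts and ends. Exons, introns, promoters and UTRs were not told apart, genes without a placed position had no window, and no sequence was used here. In each list only part of the genes had windows, such as 31 of 59 imprinted genes and 32 of 54 markers of glia, vessels and choroid plexus. Named windows were the 10 with the smallest p in each direction over 5 points on placed sequence in named genes, the 10 largest differences at p under 0.05, and the smallest p in each direction in each of 10 gene lists. The adjusted calls, the other nominal windows of the lists and the dense nominal windows were chosen after their values were seen, as were the named cytosines, and so was the split by comparable cytosines. The members and lists were chosen with earlier results of these data known.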

Additional observations from a re-analysis of the deposited data

Results flagged for a closer look

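In groups of 4 to 6 animals, a value was singled out when its gap to the nearest other animal took up more of the range than the 95% critical value of Dixon's test allows. This held for 30 of the 222 groups of values examined (13.5%), and in 12 of the 30 the other animals were all alike, at 0 or 100% for example. The critical values hold for normal samples. Most values here are bounded levels, often tied, from windows chosen by their p or difference, so no chance share can be set beside the 13.5%. Among measures of whole animals it held for 1 of 38, the score of “Parental” replicate 1 on the second principal component, 24.8.

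Among windows higher in “Attacker”, the animal apart was an “Attacker” animal in Dnah8 (90.6%), Ppp1r16a (93.3%), the LG9 window at 27549000 (84.8%), Sel1l3 (52.3%), the chr17 window at 21120000 (18.1%), Shank2 (89.6%), Atf3 (7.97%) and Gabrg3 (46.9%). It was a “Parental” animal in Shroom3 (12.7%), Ppp1r16a (66.7%), Sel1l3 (50%), the Tcf7l2 window at chr8:83106000-83106999 (12.6%) and Grin2a (8.89%). On unplaced scaffolds it was an “Attacker” animal in JH996432.1 (0%), JH996449.1 (81.8%) and JH996482.1 (38.9%), and a “Parental” animal in JH996433.1 (60%), JH996482.1 (38.6%) and JH996434.1 (20%).

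Among windows lower in “Attacker”, an “Attacker” animal stood apart in Shank3 (7.42%) and Kdm2b (91.3%). A “Parental” animal did so in Fat3 (89.4%), Kdm2b (97.9%), Itgb8 (13.9%), Celsr1 (33.2%), Nrxn3 (66.7%), Itgb6 (47.4%), Lama5 (88.5%) and Aldoc (34.2%). In the Atf3 window the value apart was that of “Attacker” replicate 6, and in the chr17 window that of “Attacker” replicate 1.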

How the results depend on the processing

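The count of windows with an adjusted p under 0.05, 4 as reported, was 7 on logit levels, 2 with cytosines shared by all animals of a window, 1 with a coverage minimum of 20, with all 6 animals of each group required or with a mean-variance trend, and 0 on untransformed levels, with a coverage minimum of 5, with at least 5 cytosines, with windows shifted by 500 bp, with the number of covered cytosines as a covariate (chosen after seeing the data) or by edgeR, which gave 1909 windows at an unadjusted p under 0.05. The count of nominal windows, 1570, was 648 with shared cytosines, 716 with a minimum of 20, 603 with at least 5 cytosines, 484 with all 6 animals and 476 by edgeR. Leaving out 1 animal gave 0 to 4 adjusted windows, with 0 without “Attacker” replicate 1, “Attacker” replicate 2 or “Parental” replicate 3, and 1247 to 1589 nominal ones. It also gave a mean level difference of -0.0599 to 0.965 points, a difference of 1.10 to 2.16 points in the share of far windows (chosen after seeing the data), and a difference of 2.65 to 9.82 on the first component. The share of nominal windows that were higher in “Attacker”, 63.9%, was 46.6% without “Attacker” replicate 6 and up to 71.9% without another animal. With shared cytosines the differences of Gli2, Hdac4 and Apc2 reversed, to 0.373, -0.201 and -1.17 points. The causes were not tested.

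Replicate numbers were not taken to pair the animals, since deviations of same-numbered animals correlated by -0.0150 to 0.0727, below the 0.1 asked of every pair. As a hint the other way, from the data and not the design, 4 of 6 “Attacker” animals correlated best with their own number, and a shared factor behind the numbers was not tested. The fit with a replicate block gave 0 adjusted and 1591 nominal windows. Intervals in sparse windows limit what can be seen there.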
